A study of Schmidtea mediterranea with 24 samples.

Results

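The mRNA response to RNA interference (RNAi) against *fbl-2*, a fibrillarin homolog of the planarian *Schmidtea mediterranea*, was read from 6 of the 24 libraries in the series. These are the 3 RNA-seq libraries labelled *fbl-2* KD (knockdown) and the 3 RNA-seq libraries labelled *egfp* 2x KD, and a gene was a member of the comparison when its value was 10 or more in at least 3 of the 6. Of 16575 genes, 12958 met this rule. At its edge, 212 tested genes reached a value of 10 in exactly 3 libraries, and 211 genes that were left out reached it in exactly 2.

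Both groups were asexual worms of the CIW4 strain, a clonal laboratory line, and both ate liver food mixed with bacteria that made double-stranded RNA. The *fbl-2* KD worms were fed 5 times, 3 days apart, and then starved for 7 days, while the number of feedings of the *egfp* 2x KD worms and the age of the worms are not given in the sources used here. The food for *fbl-2* was made at a 2-fold strength, and the control label carries the same strength. The *egfp* gene codes for a jellyfish fluorescent protein and has no counterpart in the planarian genome, so its double-stranded RNA serves as the control for the RNAi procedure itself. Each library came from the lysate of 30 worms, labelled as head, trunk and tail, at 48 hours post amputation (hpa), and part of the same lysate was used for ribosome footprints, which are not analysed here. Before freezing, the worms of each replicate were treated with cycloheximide, a drug that halts ribosomes on the mRNA. The series also holds 6 RNA-seq libraries of *fbl-1* KD and of its own *egfp* KD controls, which are used below only where the change in both knockdowns was compared.

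Fibrillarin is the enzyme of the nucleolus that adds methyl groups to the 2′-hydroxyl of ribosomal RNA at places chosen by small guide RNAs, and it also takes part in cutting the ribosomal RNA precursor. It therefore acts early in the making of ribosomes. Planarians rebuild lost tissue from neoblasts, dividing stem cells that give rise to all other cell types, and at the time sampled a blastema of new tissue is forming at the wounds. The planarian gut is a branched intestine whose phagocytes take up and digest food, store neutral lipid and export it in lipoproteins. The comparison asks which mRNAs differed in level between worms given *fbl-2* and *egfp* double-stranded RNA during regeneration, apart from how well those mRNAs were translated.

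The values are whole numbers but not read counts. They are reads per gene multiplied by 1 factor per library and rounded, as the low numbers show: in *fbl-2* KD replicate 3 no gene had the value 8, beside 163 genes at 7 and 135 at 9, and in *egfp* 2x KD replicate 1 the value 3 was held by 407 genes, beside 294 at 2 and 168 at 4. How the factors were set is not stated, and the depth in reads is therefore unknown. The scaled values added up to 8935264 to 9549828 in the libraries labelled *fbl-2* KD and 8762055 to 9361342 in *egfp* 2x KD, with 14724 to 15027 and 14739 to 14957 genes above 0. The Spearman correlation was 0.977 to 0.992 between libraries of the same group (6 pairs) and 0.971 to 0.987 between groups (9 pairs), so the ranges overlapped. The first principal component of the tested genes (31.7% of the variance) set libraries of the same group apart, with *fbl-2* KD replicate 2 at -30.7 and *fbl-2* KD replicate 3 at 23.7. On the second component (28.0%) the libraries labelled *fbl-2* KD lay at 7.91 to 26.8 and those of *egfp* 2x KD at -25.3 to -11.2. Nothing in the sources says how the lysates of a group were related, so the p-values below measure the spread between these libraries only.

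The targeted gene was not lower in the libraries that carry its name. *fbl-2* (SMED30025294) had values of 481, 773 and 982 in the 3 libraries labelled *fbl-2* KD, against 127, 135 and 144 in *egfp* 2x KD. Every library labelled *fbl-2* KD lay above every control, and the lowest of them was replicate 1. The fitted change was 5.26-fold higher, or 2.39 on the log2 scale (SE 0.22, 95% confidence interval 1.91 to 2.88, adjusted p = 0.000564). It passed in each of the 6 fits that left out 1 library, and was at an adjusted p of 0.056 when the fit gave genes of all levels the same prior spread. The other fibrillarin gene, *fbl-1* (SMED30005569), had 242, 194 and 156 in the libraries labelled *fbl-2* KD and 186, 150 and 134 in *egfp* 2x KD, with a log2 change of 0.32 (adjusted p = 0.666, SE 0.20) and overlapping groups. The paper reports lower *fbl-2* mRNA after this knockdown, measured by quantitative PCR and in situ hybridization. The values used here do not separate the worms' own transcript from the double-stranded RNA they were fed. Since the target goes against its label in these values, "*fbl-2* KD" stands below for the libraries labelled so. Each direction is that of these libraries.

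**Figure D1:**
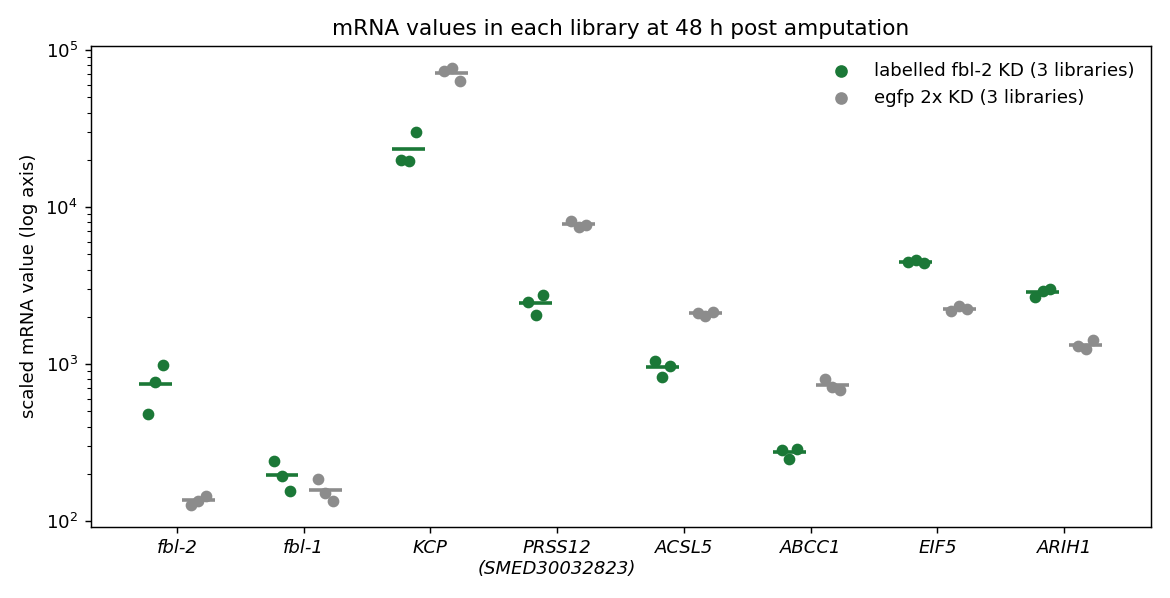
Scaled mRNA values (log axis) of 8 genes in each of the 6 libraries, with the libraries labelled *fbl-2* KD in green on the left of each pair and *egfp* 2x KD in grey on the right; bars are group means. *fbl-2* lies at 481 to 982 in the libraries labelled *fbl-2* KD and at 127 to 144 in *egfp* 2x KD, *fbl-1* overlaps, and the other 6 genes do not overlap between groups.

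The test called 47 genes. In the libraries labelled *fbl-2* KD, 21 genes rose, *fbl-2* among them, and 26 fell of the 12958 tested (limma with a mean trend, Benjamini-Hochberg adjusted p under 0.05), which is 0.162% and 0.201% of the genes. At an unadjusted p under 0.05 there were 684 higher and 603 lower genes, 5.28% and 4.65% of the genes. Among the 2257 tested genes with a protein name 368 were higher and 349 lower at that p. Among the 1936 with a cell type entry the numbers were 364 and 286. The lists below by name or cell type are drawn from these genes, so their counts at that p are to be read against them. The median log2 change over all genes tested was 0.00, and the median standard error 0.18. The called changes were large beside this: their median size was 1.14 on the log2 scale, the smallest was 0.66, and in all 47 the libraries labelled *fbl-2* KD and the controls did not overlap, as was so for 1943 of all tested genes (15%), 918 higher (7.08%) and 1025 lower (7.91%).

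Which genes were called depended on single libraries. Leaving out *fbl-2* KD replicate 3 gave 53 higher and 38 lower genes, whereas leaving out *fbl-2* KD replicate 1 gave 4 and 12 and leaving out *egfp* 2x KD replicate 1 gave 4 and 9. Without *egfp* 2x KD replicate 2 there were 14 and 12 calls, and without *egfp* 2x KD replicate 3 there were 6 and 13. A fit in which all genes shared the same prior spread called 1 gene in each direction, SMED30023111 and *PRSS12* (SMED30032823). Of the 47 genes, 12 passed in all 6 fits without a library, 9 of them lower and 3 higher, and all 47 kept their direction. The replicates also differed in how far they moved: *fbl-2* KD replicate 2 was the lowest of its group for 22 of the 26 falls, and replicate 3 the highest for 18 of them.

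**Figure D2:**
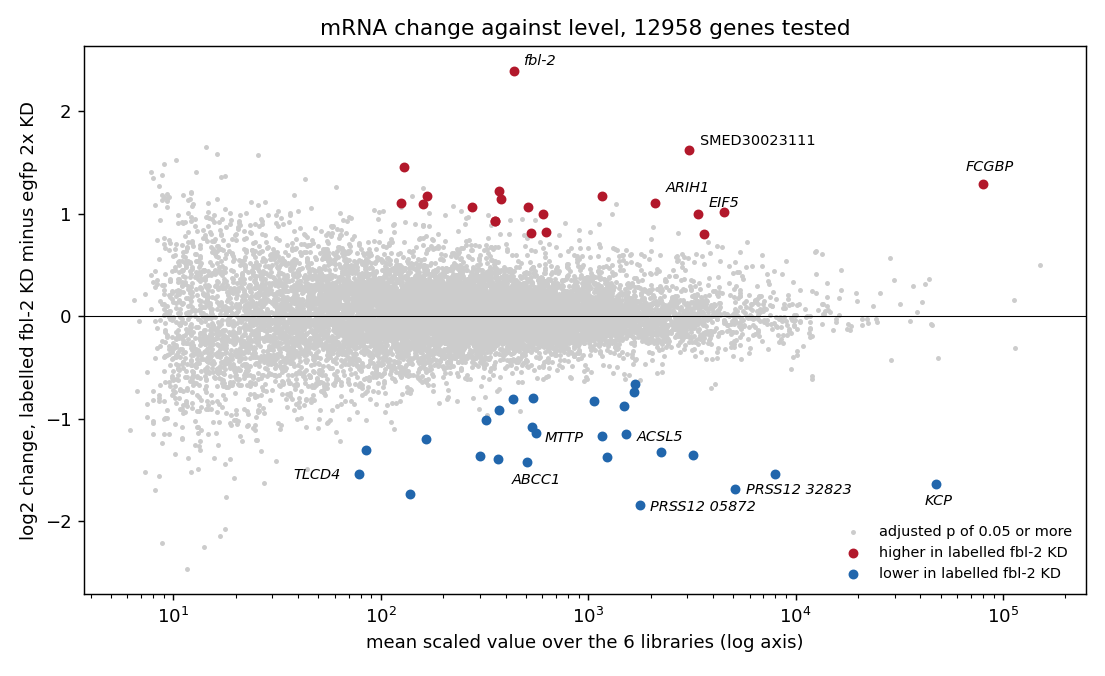
Log2 change of each tested gene (y axis, libraries labelled *fbl-2* KD minus *egfp* 2x KD) against its mean scaled value over the 6 libraries (x axis, log scale). The 21 genes called higher are red, the 26 called lower are blue and the rest grey; *TLCD4* has the lowest mean level of the called genes and *FCGBP* the highest, and no gene below *TLCD4* was called.

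The falls were led by genes of the intestine. Cell types were taken from the annotation that the authors' supplementary tables give for part of the genes, and 20 of the 26 falls had an entry. Intestine was named in 18 of these 20 and was the only cell type in 13. Among the 21 rises 10 had an entry, and 1 of these named intestine together with other cell types. Of the 1936 tested genes with any entry, 399 (20.6%) named intestine. The entries come from tables sorted by change, of which only the first part is held, so genes that moved are over-represented among them. In these whole-fragment samples, fewer intestinal cells and less RNA per intestinal cell cannot be told apart.

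A pair of genes whose best protein match is *PRSS12*, a secreted serine protease known in mammals as neurotrypsin, showed the largest falls among the called genes with a name. *PRSS12* (SMED30005872) had values of 830, 572 and 945 in *fbl-2* KD and 2899, 2729 and 2644 in *egfp* 2x KD, 3.60-fold lower (log2 change -1.85, SE 0.17, adjusted p = 0.000564). The second, *PRSS12* (SMED30032823), had 2474, 2068 and 2755 in *fbl-2* KD and 8196, 7479 and 7673 in *egfp* 2x KD, 3.22-fold lower (log2 change -1.69, SE 0.14, adjusted p = 0.000342). In both, *fbl-2* KD replicate 2 was the lowest library and all controls lay far above the knockdown. Another peptidase of the cell surface, *ENPEP* (glutamyl aminopeptidase, SMED30021960), fell less, with 1329, 1283 and 1309 in *fbl-2* KD and 2113, 1981 and 2101 in *egfp* 2x KD (log2 change -0.66, SE 0.12, adjusted p = 0.0371). Over the 32 tested peptidase genes of gut and lysosome, these 3 fell and none rose, and the median log2 change was 0.40, opposite to the genes that passed. At an unadjusted p under 0.05, 18 of the 32 were higher and 6 lower. *TMPRSS15*, which matches the protease that activates trypsinogen in the mammalian gut (SMED30034127), had a log2 change of -0.90 (adjusted p = 0.0859, SE 0.19). Both *PRSS12* calls held without any library, and the *ENPEP* call held only without *fbl-2* KD replicate 3 (adjusted p = 0.0496, against 0.0543 to 0.333 in the other 5 fits).

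Proteins of the extracellular matrix formed the largest group among the falls. Of 52 tested genes of this list, 6 fell and 1 rose, with a median log2 change of -0.07, and the 24 named in the *fbl-1* table, 3 lower and 1 higher by test, had a median of 0.05. *KCP*, a secreted protein with chordin-like repeats that in mouse enhances bone morphogenetic protein signalling, had values of 20042, 19750 and 30155 in *fbl-2* KD and 73390, 77199 and 63372 in *egfp* 2x KD. It was 3.11-fold lower (SMED30003809, log2 change -1.64, SE 0.21, adjusted p = 0.00402), with *fbl-2* KD replicate 3 nearest to the controls. *TNXB* (tenascin-X, a matrix glycoprotein, SMED30004081) had 738, 568 and 765 in *fbl-2* KD and 1832, 1682 and 1833 in *egfp* 2x KD (log2 change -1.38, SE 0.14, adjusted p = 0.00117). *POSTN* (periostin, SMED30034597) had 1843, 1416 and 2141 in *fbl-2* KD and 4343, 5057 and 4309 in *egfp* 2x KD (log2 change -1.36, SE 0.16, adjusted p = 0.0028). *TGFBI* (SMED30000013), which with periostin belongs to the matrix proteins with fasciclin domains, had a log2 change of -1.33 (adjusted p = 0.0148, SE 0.20). *HMCN1* (hemicentin, a long matrix protein that anchors cells, SMED30024938) had a log2 change of -1.14 (adjusted p = 0.012, SE 0.17), and *LAMA1* (a laminin chain of basement membranes, SMED30009787) one of -0.74 (SE 0.14, adjusted p = 0.0402). The rise was *COL6A3*, a collagen VI chain (SMED30018720), with 647, 550 and 374 in *fbl-2* KD and 199, 248 and 251 in *egfp* 2x KD (log2 change 1.14, SE 0.20, adjusted p = 0.034). *TNXB* and *POSTN* passed without any library, and *KCP* missed only without *egfp* 2x KD replicate 1 (adjusted p = 0.0633). Without that replicate *TGFBI* stood at 0.123, *HMCN1* at 0.117, *COL6A3* at 0.281 and *LAMA1* at 0.331, and without *fbl-2* KD replicate 1 at 0.101, 0.103, 0.203 and 0.203. Without *egfp* 2x KD replicate 2 they were at 0.0676, 0.0506, 0.0957 and 0.0504. Without *egfp* 2x KD replicate 3 *TGFBI* passed, and *HMCN1* (0.052), *COL6A3* (0.103) and *LAMA1* (0.270) did not. *COL6A3* was also lost without *fbl-2* KD replicate 2 (0.0632) and *LAMA1* without *fbl-2* KD replicate 3 (0.0656). The list had 2 genes called lower without *egfp* 2x KD replicate 1, 3 without *fbl-2* KD replicate 1 or *egfp* 2x KD replicate 2 and 4 without *egfp* 2x KD replicate 3, and it had 4 called higher without *fbl-2* KD replicate 3.

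Enzymes that activate, re-esterify and package dietary fat were among the falls. *ACSL5*, which links long-chain fatty acids to coenzyme A (SMED30005508), had 1053, 832 and 977 in *fbl-2* KD and 2131, 2036 and 2144 in *egfp* 2x KD, 2.21-fold lower (log2 change -1.15, SE 0.13, adjusted p = 0.00241). *MTTP*, which loads lipid onto apolipoprotein B as lipoproteins are built (SMED30015218), had 613, 655 and 905 in *fbl-2* KD and 1717, 1680 and 1444 in *egfp* 2x KD, 2.25-fold lower (log2 change -1.17, SE 0.16, adjusted p = 0.00849). *MOGAT2*, the acyltransferase that turns monoacylglycerol into diacylglycerol (SMED30022665), had 196, 195 and 247 in *fbl-2* KD and 451, 464 and 376 in *egfp* 2x KD (log2 change -1.02, SE 0.16, adjusted p = 0.0203). In *MTTP* and *MOGAT2* the library nearest to the other group was replicate 3 on both sides. A lipase went the other way: *LIPF*, matched to gastric triacylglycerol lipase and annotated to cathepsin+ cells (SMED30003335), had 4972, 4263 and 4584 in *fbl-2* KD and 2549, 2387 and 3009 in *egfp* 2x KD (log2 change 0.80, SE 0.14, adjusted p = 0.034). Among the 29 tested genes of neutral lipid and lipoprotein metabolism these 3 fell and this 1 rose, the median log2 change was -0.30, and 13 were lower and 6 higher at an unadjusted p under 0.05. The 12 of them named in the *fbl-1* table had the opposite sign, with a median of 0.06, 4 higher and 2 lower at that p. *ACSL5* passed without any library. *MTTP* did not without *fbl-2* KD replicate 1 (adjusted p = 0.0745) or *egfp* 2x KD replicate 1 (0.111), nor *MOGAT2* without these (0.145 and 0.204) or *egfp* 2x KD replicate 2 (0.0944). The *LIPF* call was lost without *fbl-2* KD replicate 1 (0.203) and without each control, *egfp* 2x KD replicate 1 (0.316), 2 (0.135) or 3 (0.0746).

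Pumps and an iron store fell as well. *ABCC1*, an ATP-driven exporter of drugs and glutathione conjugates (SMED30000258), had 283, 250 and 288 in *fbl-2* KD and 809, 718 and 684 in *egfp* 2x KD, 2.69-fold lower (log2 change -1.43, SE 0.14, adjusted p = 0.000695), and the call held without any library. *ABCG2*, another exporter of the same class (SMED30032299), had 391, 344 and 455 in *fbl-2* KD and 719, 684 and 660 in *egfp* 2x KD (log2 change -0.80, SE 0.14, adjusted p = 0.037). It passed only without *fbl-2* KD replicate 3 among the fits that left out a library (adjusted p = 0.0191, against 0.0632 to 0.331 in the others). Of 9 tested ABC transporter genes, 2 fell and none rose (median log2 change -0.34, and 0.11 over the 3 named in the *fbl-1* table, none of them called). A further 2 were lower at an unadjusted p under 0.05, and both match the same proteins. The other *ABCC1* (SMED30033764) had a log2 change of only -0.40 (adjusted p = 0.359, SE 0.14). The other *ABCG2* (SMED30017487) had one of -0.79 (adjusted p = 0.117, SE 0.18). *FTMT*, which matches mitochondrial ferritin, the iron storage protein (SMED30017554), had 218, 113 and 183 in *fbl-2* KD and 389, 522 and 381 in *egfp* 2x KD (log2 change -1.36, SE 0.23, adjusted p = 0.034). It was lost without *egfp* 2x KD replicate 1 (0.156), 2 (0.135) or 3 (0.0746). *FTMT* was the only call among 17 iron and haem genes, whose median log2 change was 0.03. Of 62 solute carrier genes none passed, 21 were lower and 4 higher at an unadjusted p under 0.05, and the phosphate carrier *SLC20A1* (SMED30009145) had a log2 change of -1.42 (adjusted p = 0.101, SE 0.31). Without *fbl-2* KD replicate 3, 4 of the 62 were called lower.

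The remaining named falls came from several functions. *TLCD4*, a membrane protein (SMED30017153), was the lowest-valued of the named calls, with 45, 26 and 51 in *fbl-2* KD and 111, 132 and 105 in *egfp* 2x KD (log2 change -1.54, SE 0.27, adjusted p = 0.034). *TUBA3D*, an alpha-tubulin annotated to neural and muscle cells (SMED30001212), had 1160, 944 and 1062 in *fbl-2* KD and 1912, 2024 and 1874 in *egfp* 2x KD (log2 change -0.88, SE 0.13, adjusted p = 0.012). *DLL4*, which matches a ligand of Notch receptors and was annotated to cathepsin+ cells and muscle (SMED30002925), had 668, 892 and 756 in *fbl-2* KD and 1509, 1244 and 1346 in *egfp* 2x KD (log2 change -0.83, SE 0.14, adjusted p = 0.034). Groups did not overlap in any of these. *TEP1*, a protein of vaults and telomerase (SMED30008318), had a log2 change of -0.81 (adjusted p = 0.034, SE 0.14). *Os01g0290100*, whose best match is a cysteine desulfhydrase of rice (SMED30027034), had one of -0.91 (SE 0.16, adjusted p = 0.037). Without *egfp* 2x KD replicate 1 none of these 5 passed, at adjusted p of 0.232 (*TLCD4*), 0.123 (*TUBA3D*), 0.331 (*DLL4*), 0.325 (*TEP1*) and 0.232 (*Os01g0290100*). The same was so without *egfp* 2x KD replicate 3 (0.0714 to 0.165) and without *egfp* 2x KD replicate 2 (0.0504 to 0.163). Without *fbl-2* KD replicate 1 *TUBA3D* alone of the 5 passed (0.0465), and without *fbl-2* KD replicate 2 *TEP1* (0.0617) and *Os01g0290100* (0.0632) did not. Among 11 tested tubulin genes 1 fell, while beta-tubulin *TUBB2B* (SMED30018979) had a log2 change of 0.99 (adjusted p = 0.243) and *TUBA1A* (SMED30021235) one of -0.70 (adjusted p = 0.0765).

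Genes without a name made up 6 of the falls and 11 of the rises. SMED30027587 had 51, 65 and 74 in *fbl-2* KD and 182, 228 and 227 in *egfp* 2x KD (log2 change -1.74, SE 0.20, adjusted p = 0.0025). SMED30004451 had 4470, 2963 and 4887 in *fbl-2* KD and 11252, 13491 and 10459 in *egfp* 2x KD (log2 change -1.54, SE 0.19, adjusted p = 0.00347). Both passed without any library. The call with the smallest p of all was a rise: SMED30023111, annotated to neural, cathepsin+, epidermal, pharyngeal and parapharyngeal cells, had 4587, 4560 and 4725 in *fbl-2* KD and 1475, 1563 and 1483 in *egfp* 2x KD. It was 3.07-fold higher (log2 change 1.62, SE 0.12, adjusted p = 0.000156), with hardly any spread within either group, and it passed in every fit without a library. SMED30031409, annotated to cathepsin+ cells, had 217, 219 and 132 in *fbl-2* KD and 49, 91 and 66 in *egfp* 2x KD (log2 change 1.46, SE 0.26, adjusted p = 0.0402). That call was lost without *fbl-2* KD replicate 1 (0.260) or 2 (0.0816) and without *egfp* 2x KD replicate 1 (0.275) or 3 (0.152).

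**Figure D3:**
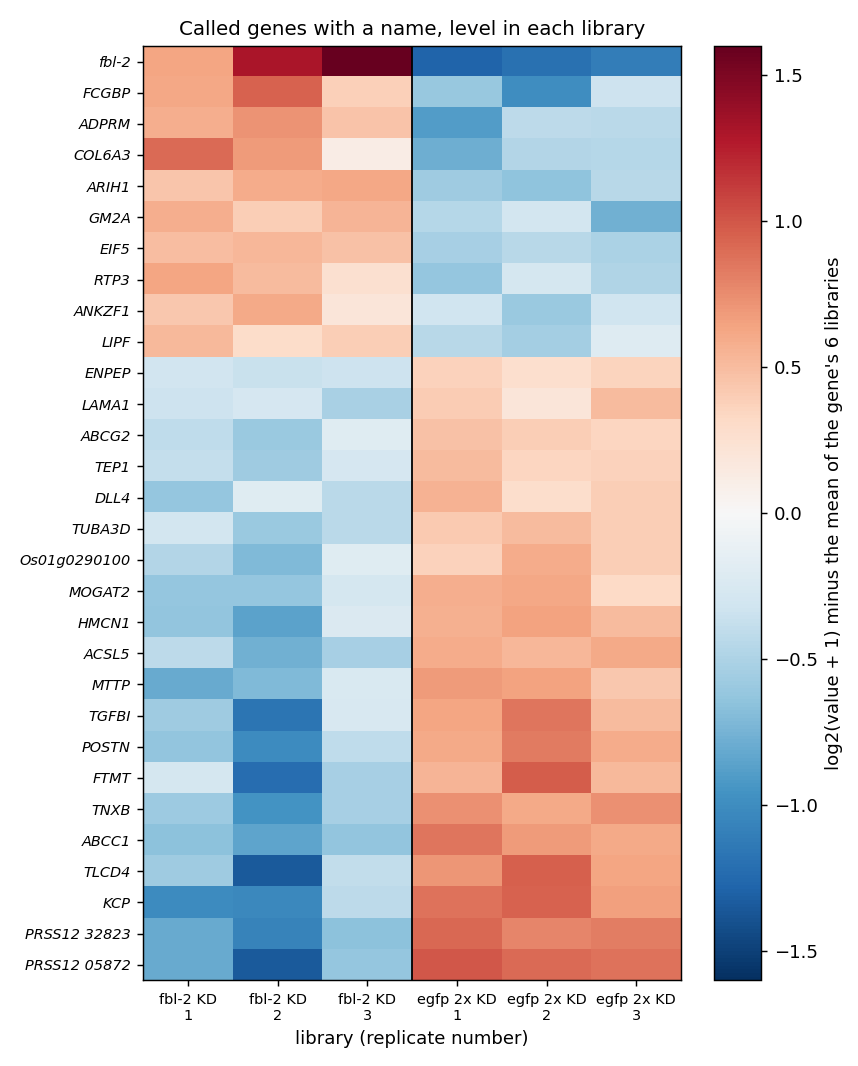
Level of each of the 30 called genes with a name (rows, from the largest rise to the largest fall) in the 6 libraries (columns, libraries labelled *fbl-2* KD on the left, *egfp* 2x KD on the right). Colour is log2(value + 1) minus the mean of the gene over the 6 libraries; red is above that mean and blue below, and *fbl-2* KD replicate 2 is the lowest library for most of the falls.

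The named rises included a translation factor, a ubiquitin ligase and proteins of secretion and lysosomes. *EIF5*, which makes the initiation factor eIF2 hydrolyse GTP at the start codon (SMED30031148), had 4479, 4581 and 4398 in *fbl-2* KD and 2194, 2334 and 2230 in *egfp* 2x KD, 1.99-fold higher (log2 change 0.99, SE 0.12, adjusted p = 0.00312). *ARIH1*, a ubiquitin ligase that works with cullin-RING ligases (SMED30010468), had 2658, 2936 and 2987 in *fbl-2* KD and 1306, 1245 and 1431 in *egfp* 2x KD, 2.15-fold higher (log2 change 1.11, SE 0.13, adjusted p = 0.00241). Both were steady within each group. *ARIH1* passed without any library, and *EIF5* missed only without *egfp* 2x KD replicate 1 (adjusted p = 0.0633). *ANKZF1*, which releases unfinished chains from stalled ribosomes (SMED30019513), had 804, 909 and 685 in *fbl-2* KD and 478, 396 and 480 in *egfp* 2x KD (log2 change 0.82, SE 0.15, adjusted p = 0.0409). Its call held only without *fbl-2* KD replicate 3 (adjusted p = 0.0227, against 0.0777 to 0.242 in the other 5 fits).

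*FCGBP*, a large mucus protein that in human binds antibodies and is annotated here to the parapharyngeal gland cells (SMED30020726), reached the highest values of all called genes. It had 110134, 138184 and 93266 in *fbl-2* KD and 47047, 36024 and 57145 in *egfp* 2x KD, 2.45-fold higher (log2 change 1.29, SE 0.24, adjusted p = 0.0402). The call held only without *fbl-2* KD replicate 3 (0.0247), against 0.0543 to 0.331 in the other 5 fits. *GM2A*, the lysosomal protein that presents the ganglioside GM2 to its hydrolase (SMED30007906), had 6339, 5554 and 6135 in *fbl-2* KD and 3072, 3450 and 2482 in *egfp* 2x KD (log2 change 1.01, SE 0.15, adjusted p = 0.0123). It was lost without *fbl-2* KD replicate 1 (0.107) and without *egfp* 2x KD replicate 1 (0.123) or 3 (0.0967). *GM2A* was the only call among 29 tested lysosomal genes, whose median log2 change was 0.26. *NPC2*, a carrier of cholesterol out of lysosomes, had log2 changes of 0.60 (SMED30019175, adjusted p = 0.206) and 0.59 (SMED30015889, adjusted p = 0.261).

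The last named rises were genes of mixed role. *ADPRM*, which splits ADP-ribose (SMED30025126), had 230, 253 and 210 in *fbl-2* KD and 82, 114 and 113 in *egfp* 2x KD (log2 change 1.17, SE 0.19, adjusted p = 0.0219). *RTP3*, named after a mammalian protein that helps receptors reach the cell surface (SMED30013183), had 523, 478 and 401 in *fbl-2* KD and 218, 276 and 240 in *egfp* 2x KD (log2 change 0.93, SE 0.16, adjusted p = 0.034). Neither overlapped between groups, and neither passed without *egfp* 2x KD replicate 1 (0.156 and 0.267), *egfp* 2x KD replicate 3 (0.0565 and 0.152), *fbl-2* KD replicate 1 (0.145 and 0.203) or *fbl-2* KD replicate 2 (0.0543 and 0.0563).

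Genes of ribosome production, the process that fibrillarin serves, gave no call. Of 49 tested ribosome biogenesis genes, 18 were higher and 1 lower at an unadjusted p under 0.05, 48 had a change above 0, and their median log2 change was 0.34 with quartiles of 0.27 and 0.39. *GRWD1*, a histone chaperone that also binds pre-ribosomes (SMED30032098), had a log2 change of 0.64 (adjusted p = 0.117, SE 0.15). *UTP15*, a subunit of the small subunit processome that holds the ribosomal RNA precursor (SMED30035870), had 0.69 on the same scale (SE 0.16, adjusted p = 0.123). *RRP15* (SMED30001140) had 0.83 (SE 0.21, adjusted p = 0.170). These values are to be read against the way names were obtained. The named genes come from the ends of tables sorted by change, and the 2257 tested genes with a protein name had a median log2 change of 0.16. With names from the *fbl-1* table alone the 22 tested genes of ribosome biogenesis had a median of 0.27.

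Among translation genes *EIF5* gave the only call. None of the 15 tested aminoacyl-tRNA synthetase genes, which charge tRNAs with amino acids, was called, 1 was higher at an unadjusted p under 0.05, and their median log2 change was 0.05. *IARS* (isoleucine, SMED30027368) had 1486, 1498 and 1294 in *fbl-2* KD and 1397, 1297 and 1451 in *egfp* 2x KD, and *MARS* (methionine, SMED30035512) had 855, 869 and 864 in *fbl-2* KD and 916, 836 and 904 in *egfp* 2x KD. Both pairs of groups overlapped. Among 12 amino acid response genes none was called, and *ASNS* (asparagine synthetase, SMED30014191) had a log2 change of 0.46 (adjusted p = 0.465). Of 16 cytosolic ribosomal protein genes none was called, 2 were higher and 2 lower at an unadjusted p under 0.05, and *RPL3* (SMED30005998) had a log2 change of -0.77 (adjusted p = 0.229) beside 0.75 for *RPS12* (SMED30010028, adjusted p = 0.298). Of the 20 translation factor genes *EIF5* was the only call, and the release factor *ETF1* (SMED30034032) had a log2 change of 0.37 (adjusted p = 0.348).

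**Figure D4:**
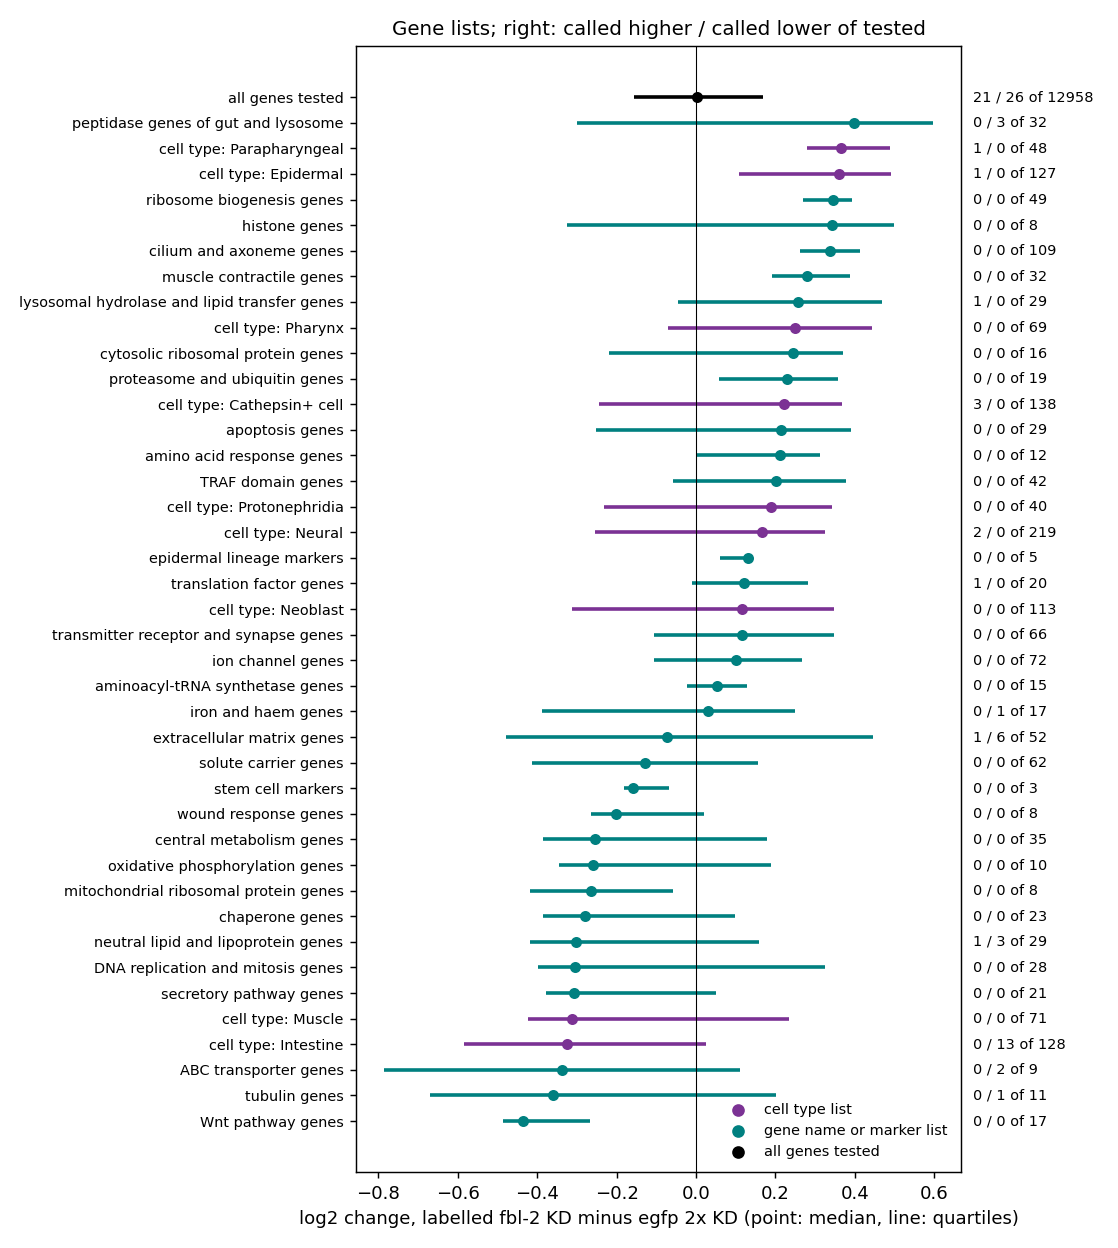
Median log2 change (points) and quartiles (lines) of the tested members of each gene list, libraries labelled *fbl-2* KD minus *egfp* 2x KD, with the number called higher, called lower and tested on the right; all genes tested are on the top row at a median of 0.00. Names and cell types exist mainly for genes that changed, which spreads the medians away from 0; the intestine list holds 13 of the 26 falls and no rise.

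Markers of stem cells, of the epidermal lineage and of the wound response were not called. *piwi-1*, the marker of neoblasts (SMED30007406), had 10591, 9482 and 12684 in *fbl-2* KD and 12486, 13103 and 11974 in *egfp* 2x KD (log2 change -0.21, SE 0.15, adjusted p = 0.735). *vasa-1*, a germ and stem cell helicase (SMED30031463), had a log2 change of -0.16 (adjusted p = 0.802), and *MCM2*, part of the replication helicase (SMED30006979), one of 0.02 (adjusted p = 0.978). Along the epidermal lineage, the early progenitor marker *prog-1* (SMED30035904) had a log2 change of -0.03 and the late progenitor marker *AGAT-1* (SMED30018353) one of 0.13 (adjusted p = 0.97 and 0.814). *egr-5*, a transcription factor of epidermal maturation (SMED30029873), had 290, 383 and 288 in *fbl-2* KD and 225, 187 and 166 in *egfp* 2x KD (log2 change 0.73, SE 0.18, adjusted p = 0.145). Its groups did not overlap, as those of 15% of all genes did not. *jun-1* (SMED30025757) and *fos-1* (SMED30013808), transcription factors induced at wounds, were lower in every library labelled *fbl-2* KD than in any control, with log2 changes of -0.33 and -0.34 (adjusted p = 0.416 and 0.452). *wnt-1* (SMED30008884), made at wounds and at the tail pole, had low values of 30, 28 and 26 in *fbl-2* KD and 19, 23 and 27 in *egfp* 2x KD (log2 change 0.28, SE 0.30, adjusted p = 0.816).

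Genes of the Wnt pathway lay mostly below their controls without passing. Of 17 tested, *wnt-1* included, 9 were lower and none higher at an unadjusted p under 0.05, and the median log2 change was -0.44. The receptor *FZD4* (SMED30023158) had a log2 change of -0.62 (adjusted p = 0.152, SE 0.15), the secreted inhibitor *SFRP5* (SMED30022468) one of -0.61 (adjusted p = 0.348) and *FZD5* (SMED30016952) one of -0.47 (adjusted p = 0.358). In 11 of the 17 the groups did not overlap, all of them lower. In that direction this was so for 7.91% of all genes tested and for 448 of the 2257 with a protein name. Only 3 of the 17 have a name in the *fbl-1* table, all with a change below 0, a median of -0.49 and 1 lower at an unadjusted p under 0.05. So most members were named by the table made from these same libraries, and the count is no independent evidence of a direction.

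Cilium genes lay mostly above their controls, also without passing. None of 109 tested genes of cilia and axonemes was called, 32 were higher and none lower at an unadjusted p under 0.05, and the median log2 change was 0.34. The 81 of them named in the *fbl-1* table had the same median of 0.34. That table over-represents genes that moved in *fbl-1* KD, where 36 of 82 tested cilium genes named in it were called higher. The second median is therefore no independent evidence of a direction. *RSPH1*, of the radial spokes that set ciliary beat (SMED30011512), had a log2 change of 0.65 (adjusted p = 0.13, SE 0.15), and *DNALI1*, a dynein light intermediate chain (SMED30025181), had 0.58 (adjusted p = 0.21). The summed values of the list ran from 57963 to 93061 in *fbl-2* KD and from 46612 to 72732 in *egfp* 2x KD and overlapped. Muscle contractile genes behaved likewise, with no call among 32, a median of 0.28 and 8 higher and 1 lower at an unadjusted p under 0.05. Their sums of 127662 to 234170 in *fbl-2* KD and 110048 to 168125 in *egfp* 2x KD also overlapped.

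Chaperone and secretory genes lay mostly below their controls, again with no call. Of 23 chaperone genes 10 were lower and 1 higher at an unadjusted p under 0.05 (median log2 change -0.28), and the small heat shock gene *hsp-16.2* (SMED30026445) had a log2 change of -0.80 (adjusted p = 0.104, SE 0.18). Their summed values were 86697 to 88354 in *fbl-2* KD and 108128 to 110933 in *egfp* 2x KD and did not overlap. The 10 chaperone genes named in the *fbl-1* table had a median of -0.03. Summed values of the chaperone genes named there were 15468 to 17995 in *fbl-2* KD and 15864 to 19198 in *egfp* 2x KD and overlapped. Among 21 secretory pathway genes 4 were lower and 1 higher at an unadjusted p under 0.05 (median -0.31), while the 4 named in the *fbl-1* table had 1 higher, none lower and a median of 0.11. Calumenin *CALU* (SMED30022431), a calcium-binding protein of the endoplasmic reticulum, was at 0.60 (adjusted p = 0.0859). Of 28 genes of DNA replication and mitosis 9 were lower and 3 higher at that p (median -0.31), with the mitotic kinase *PLK1* (SMED30025780) at -0.50 (adjusted p = 0.150). The 13 of these genes named in the *fbl-1* table had 1 lower, 2 higher and a median of -0.22.

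By cell type, intestine was the list with most calls. Of 128 tested genes annotated to intestine alone, 13 fell (10.2%, against 0.201% of all genes and 1.03% of those with a cell type entry) and none rose, and 7 were higher and 54 lower at an unadjusted p under 0.05. The median log2 change was -0.33, against 0.22 over the 1936 tested genes with a cell type entry. Of the 115 intestine genes that were not called, 81 had a change below 0 and 34 above, with a median of -0.30. With the cell types of the *fbl-1* table alone, 8 of 69 fell and the median was -0.07. Of these 69, the 8 falls included, 40 had a change below 0 and 29 above. The skew of the genes that were not called is therefore to be read with the way the list was named. Over the 399 genes whose entry names intestine, alone or beside other cell types, 18 fell, 1 rose and the median was -0.07. Those 18 include the 13 falls annotated to intestine alone. The 13 falls became 6 without *fbl-2* KD replicate 1, 4 without *egfp* 2x KD replicate 1, 6 without *egfp* 2x KD replicate 2 and 8 without *egfp* 2x KD replicate 3, and were 10 and 17 without *fbl-2* KD replicates 2 and 3. The summed values of the list were 188426, 198309 and 218300 in *fbl-2* KD and 297340, 289138 and 271068 in *egfp* 2x KD. *KCP* alone gave 9.96% to 13.8% of the sum in *fbl-2* KD and 23.4% to 26.7% in *egfp* 2x KD, and without *KCP* the sums were 168384 to 188145 in *fbl-2* KD and 207696 to 223950 in *egfp* 2x KD. They did not overlap either way, but part of the list was named only by the table made from these same libraries. With the cell types of the *fbl-1* table alone, the sums were 58910 to 81889 in *fbl-2* KD and 108307 to 130201 in *egfp* 2x KD. *KCP* was not taken out of these, so the separation without *KCP* is no independent evidence of a fall across the list.

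Among genes annotated to a single cell type, no other cell type held a fall. Of 138 genes annotated to cathepsin+ cells, phagocytic cells spread through the body, 3 rose (*LIPF* and 2 without a name), with 36 higher and 21 lower at an unadjusted p under 0.05. Of 127 epidermal genes 1 rose, 41 were higher and 8 lower at that p, and the median log2 change was 0.36. Of 219 neural genes 2 rose (*ANKZF1* and 1 gene without a name) and the median was 0.17. These medians are to be read against 0.22, the median of all tested genes with a cell type entry. Of 48 parapharyngeal genes *FCGBP* rose, 20 were higher and 2 lower at that p, and the summed values of 273566 to 454577 in *fbl-2* KD and 163461 to 277261 in *egfp* 2x KD overlapped slightly. No gene of muscle (71 tested), neoblasts (113), pharynx (69) or protonephridia (40), the excretory organ, was called. In muscle 21 genes were lower and 7 higher at an unadjusted p under 0.05, in neoblasts 19 and 16, in the pharynx 3 and 9 and in protonephridia 4 and 8. The median of the 71 muscle genes was -0.31. Over the 35 with that cell type in the *fbl-1* table it was 0.11, with 6 lower and 3 higher. Without *egfp* 2x KD replicate 1, and likewise without *fbl-2* KD replicate 1, the cathepsin+, epidermal, neural and parapharyngeal lists had no call. Without *egfp* 2x KD replicate 2 only the cathepsin+ list had 1, and without *egfp* 2x KD replicate 3 only the neural list did. Without *fbl-2* KD replicate 3 there were 4 higher and 1 lower genes in the cathepsin+ list, 2 and 1 in the epidermal, 2 and 0 in the neural and 3 and 0 in the parapharyngeal list, and without *fbl-2* KD replicate 2 the higher genes numbered 2, 1, 1 and 0.

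Most of the called genes moved the same way in the libraries labelled *fbl-1* KD, which have controls of their own. There, 654 of 12965 tested genes were called (5.04%), 336 higher (2.59%) and 318 lower (2.45%), and *fbl-1* was itself higher than in *egfp* KD (1383, 981 and 753 against 143, 130 and 129). All 47 genes were tested in both arms. Of these, 32 were called in both with the same direction, which is 68.1% of the *fbl-2* KD calls and 4.89% of the *fbl-1* KD calls, and none was called in opposite directions. Falls were shared more often than rises by count, with 21 of 26 falls and 11 of 21 rises, and that difference was not tested. *PRSS12* (SMED30005872) had log2 changes of -1.85 in *fbl-2* KD and -1.20 in *fbl-1* KD, *KCP* of -1.64 and -1.29, *ACSL5* of -1.15 and -1.06, and *ARIH1* of 1.11 and 1.49, each called in both arms. SMED30023111 had 1.62 and 1.47. The change of 1 of the 47 genes, *fbl-2*, differed between the knockdowns by the test of the difference.

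That test compared the change in *fbl-2* KD with the change in *fbl-1* KD over all 12 RNA-seq libraries, each arm against its own controls, and called 21 of 13244 genes (0.159%). The change in *fbl-2* KD was the lower for 17 genes (0.128%) and the higher for 4 (0.0302%). Aminoacyl-tRNA synthetases were 8 of the 17, all with a change in *fbl-2* KD between -0.10 and 0.06 and one between 0.85 and 1.44 in *fbl-1* KD. The list has 15 tested members, of which 13 were called higher in *fbl-1* KD. Names for 14 of the 15 stand in the *fbl-1* table, whose held part over-represents genes that moved. *IARS*, described above at control level in *fbl-2* KD, had 3740, 4008 and 3500 in *fbl-1* KD and 1261, 1510 and 1370 in *egfp* KD, and its changes of 0.04 and 1.44 differed by -1.40 (SE 0.16, adjusted p = 0.000474). *CHAC1*, which breaks down glutathione and is a target of the amino acid stress response in mammals (SMED30026774), had 1015, 853 and 819 in *fbl-2* KD and 804, 905 and 968 in *egfp* 2x KD, a log2 change of 0.00. In *fbl-1* KD it had 1873, 1811 and 1941, against 769, 683 and 646 in *egfp* KD, and the changes differed by -1.42 (SE 0.17, adjusted p = 0.000537). *LIPA*, a lysosomal lipase (SMED30002911), had 205, 93 and 209 in *fbl-2* KD and 62, 128 and 54 in *egfp* 2x KD, which overlap (log2 change 1.06, SE 0.36, adjusted p = 0.348). In the other arm it had 108, 285 and 149 in *fbl-1* KD and 3, 4 and 4 in *egfp* KD, so the fold in that arm is taken against values near 0. The 2 tables were scaled apart, and levels are not compared between them. The *fbl-1* food was 4-fold strength and the *fbl-2* food 2-fold, so the gene targeted and the dose of food cannot be told apart.

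**Figure D5:**
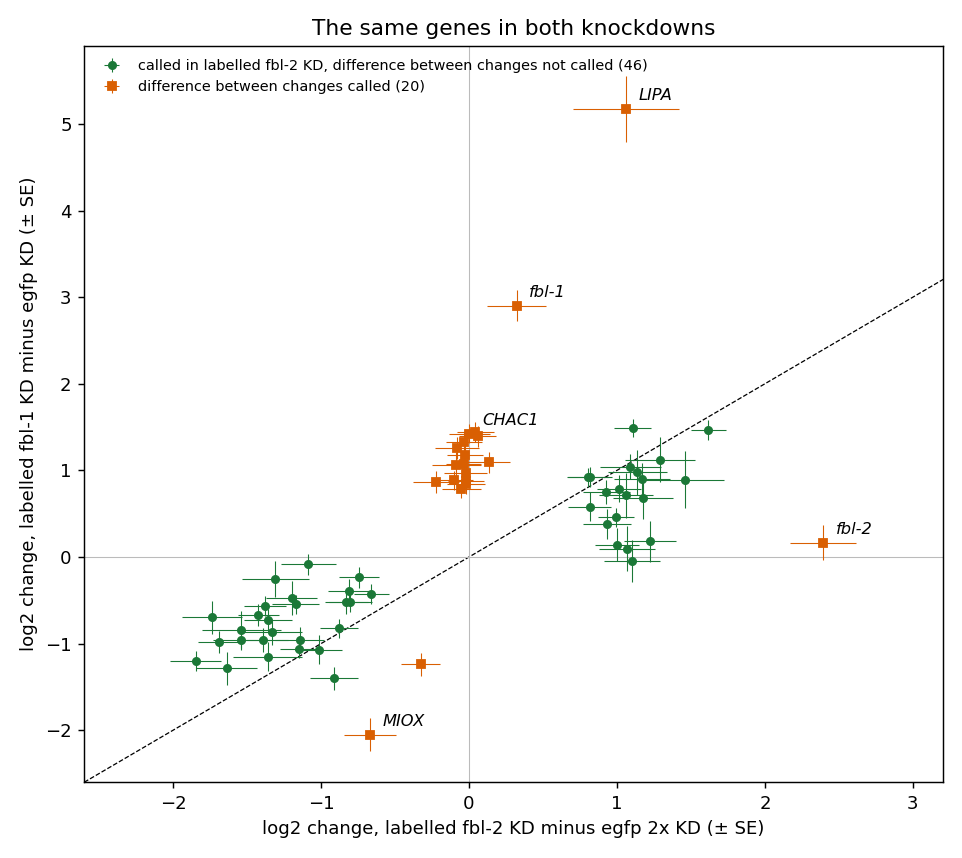
Log2 change in the libraries labelled *fbl-2* KD against *egfp* 2x KD (x axis) and in those labelled *fbl-1* KD against *egfp* KD (y axis) for the 46 called genes whose difference was not called (green circles) and 20 of the 21 genes whose changes differed by test (orange squares); bars are ± SE and the dashed line marks equal changes. The group of orange squares at a change near 0 on the x axis and around 1 on the y axis holds *CHAC1* and the 8 aminoacyl-tRNA synthetases.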

How the data were processed

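Total RNA of the 6 libraries was depleted of ribosomal RNA and sequenced in pairs. Following the study's methods, reads were trimmed with Cutadapt and Sickle, cleared of ribosomal RNA, and aligned to the planarian transcriptome by Tophat2. Those that mapped to a single place were summed for each gene by featureCounts. The signal values deposited by the authors are such reads after scaling by 1 factor per library and rounding; the factor is not stated and the depth is unknown, so no count model was used. All tables of RNA-seq values were read, and 0 columns of other values were left out.

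Values were tested as log2(value + 1) with limma 3.58.1 in R 4.3.3, with a mean trend, on the 3 libraries labelled *fbl-2* KD and the 3 *egfp* 2x KD libraries, for genes with a value of 10 or more in at least 3. Fold changes are on that scale, which understates the change of low genes. Tests were two-sided, and p-values were adjusted by Benjamini-Hochberg over all genes tested, with a threshold of 0.05. The difference between knockdowns was fitted over 12 RNA-seq libraries. An exact permutation test of 3 against 3 libraries cannot go below p = 0.1 and was not used. The fit was tested on simulated data.

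Gene names are best protein matches (E value of 1e-05 or less) and, with the cell types, come from the held part of the study's supplementary gene tables. These are sorted by change, so lists built from them over-represent genes that moved. Members and lists were chosen with earlier results of these data known. The text names the targets, the study's marker genes, up to 12 called genes with a name in each direction, up to 4 members per list and 2 genes without a name in each direction; further called genes with a name, and genes whose change differed between knockdowns, were named after their values were seen. Alternatives were pseudocounts of 0.5 and 5, no filter or a minimum of 50, 3 other scalings, 3 other variance models, the replicate number as a block, each library left out, and other sources of list members. The difference of 1 gene is counted but not reported here.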

Additional observations from a re-analysis of the deposited data

Results flagged for a closer look

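The change in the libraries labelled *fbl-2* KD less the change in those labelled *fbl-1* KD passed the test of the difference for 21 genes, of which 20 are given here, all values below being log2 differences from limma over 12 libraries. For the targets it was 2.23 for *fbl-2* and -2.58 for *fbl-1*, each higher in the arm that carries its name. Among the aminoacyl-tRNA synthetases it was -1.40 for *IARS*, -1.37 for *MARS*, -1.33 for *QARS*, -1.21 for *AARS*, -1.11 for *TARS* (SMED30015942), -0.98 for *EPRS*, -0.90 for *RARS* and -0.87 for *NARS*. *CHAC1* stood at -1.42, the sodium-proton exchanger *SLC9A2* (SMED30001068) at -1.34, *EIF2S1*, the alpha subunit of initiation factor eIF2, at -1.15, and the lysosomal lipase *LIPA* (SMED30002911) at -4.11. The *LIPA* value rests on *egfp* KD values of 3, 4 and 4, below the minimum of 10, so its size depends on the pseudocount and is not to be ranked with the others.

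Smaller differences were -1.09 for the kinase *STK24*, -0.99 for the lysosomal sialic acid exporter *SLC17A5*, -0.96 for *TRAF3* (SMED30002663) and -0.84 for *BRF1*, a subunit of the RNA polymerase III initiation factor. In the other direction *MIOX* (SMED30019899), which starts the breakdown of inositol, stood at 1.38 and *ZBED9* at 0.91. *MIOX* had 131, 122 and 160 in *fbl-2* KD and 216, 242 and 198 in *egfp* 2x KD, a log2 change of -0.67 (adjusted p = 0.173), and a larger fall of -2.05 in *fbl-1* KD. When each of the 12 libraries was left out in turn, the differences of *LIPA*, *fbl-1*, *CHAC1*, *IARS*, *MARS*, *SLC9A2*, *QARS*, *AARS*, *TARS* and *fbl-2* passed in all 12 fits. *EPRS* passed in 8, *RARS* in 5, *SLC17A5* in 4, *STK24* and *MIOX* in 3, *EIF2S1*, *TRAF3* and *BRF1* in 2, *ZBED9* in 1 and *NARS* in 0.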

How the results depend on the processing

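Against 21 higher and 26 lower genes, limma without a mean trend called 1 and 1, and a spread shared by all 12 RNA-seq libraries called 47 and 58, with 42 of the 47 genes among them. With the replicate number as a block there were 4 and 9 calls, all 13 among the 47. The pairing check did not bear out that block, as the deviations of same-numbered libraries correlated at -0.15, -0.39 and -0.30. Those of differently numbered libraries correlated at -0.07 to 0.32. With 3 libraries per group, such values cannot show whether the numbers pair the samples. Leaving out 1 library gave 4 to 53 higher and 9 to 38 lower genes. The *fbl-2* change without a mean trend kept its size of 2.39 at an adjusted p of 0.056, and it was 2.17 to 2.68 with 1 library left out. The other pseudocounts, filters and scalings and the robust fit gave 18 to 21 higher and 24 to 26 lower genes. For the difference between knockdowns, against 4 higher and 17 lower genes, there were 1 and 10 without a mean trend, 1 and 7 with the block, and 2 to 4 and 9 to 14 with 1 library left out. No named change reversed among those called. Depth in reads is unknown, which leaves counting error unmeasured.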

Other observations

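The lists of nerve and signalling genes held no call in the libraries labelled *fbl-2* KD. None of 72 tested ion channel genes was called, with 8 higher and 5 lower at an unadjusted p under 0.05 and a median log2 change of 0.10, and the innexin *unc-9* (SMED30023483), a gap junction protein, had a log2 change of -0.83 (adjusted p = 0.0859, SE 0.17). None of 66 transmitter receptor and synapse genes was called, with 8 higher and 2 lower at that p and a median of 0.12. Of 42 TRAF domain genes, signalling adaptors that are numerous in planarians, none was called, 10 were higher and 3 lower at that p, and the median was 0.20. *TRAF4* (SMED30025885) had a log2 change of -1.01 (adjusted p = 0.0815, SE 0.21) beside 0.89 for *TRAF2* (SMED30026063, SE 0.21, adjusted p = 0.120). Of 29 apoptosis genes none was called, 6 were higher and 1 lower at that p, and the median was 0.21.

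The lists of central metabolism, mitochondrial, histone and proteasome genes held no call either. Of 35 central metabolism genes 14 were lower and 5 higher at an unadjusted p under 0.05, with a median log2 change of -0.25, while the 10 of them named in the *fbl-1* table had 3 higher, 1 lower and a median of 0.18. *DPYD*, which breaks down pyrimidines (SMED30004216), had a log2 change of -0.62 (adjusted p = 0.0859), and *HPD*, of tyrosine breakdown (SMED30014546), one of 0.60 (adjusted p = 0.104). Of 10 oxidative phosphorylation genes 3 were lower and none higher at that p (median -0.26, and 0.44 over the 3 named in the *fbl-1* table), of 8 mitochondrial ribosomal protein genes 2 were lower and 2 higher (median -0.27), and of 8 histone genes 2 were lower and 2 higher (median 0.34). Of 19 proteasome and ubiquitin genes 3 were higher and 2 lower (median 0.23), and the proteasome subunit *PSMD2* (SMED30003353) had a log2 change of -0.47 (adjusted p = 0.184).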
